A study of Mus musculus with 12 samples.

Results

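Cytosolic ribosomal proteins were followed by the probes whose names carry the gene number of a mouse gene called Rpl or Rps plus a number, leaving out the S6 kinases and 1 pseudogene probe. This rule found 79 probes for 70 genes among the 46628 probes of the array, and 72 of them, for 67 genes, were tested because they scored above 0.99 for detection on 3 or more different arrays. Of these 72 probes, 42 measured 39 large-subunit genes and 30 measured 28 small-subunit genes. The 7 probes that did not pass, for Rpl17, Rpl18, Rpl23, Rpl37, Rpl38, Rps18 and Rps19, were detected on 0 of 9 arrays, and Rpl18, Rps18 and Rps19 had no other probe.

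The samples were organotypic hippocampal slice cultures, slices of mouse hippocampus kept alive on a membrane, from C57BL/6J mice of mixed gender. All were incubated for 2 h, and total RNA was hybridised to Illumina whole-genome bead arrays. The 4 groups of 3 samples were IS + DIDS (an ischemic solution together with DIDS), IS (the ischemic solution alone), ACSF + DIDS (artificial cerebrospinal fluid with DIDS) and Control ACSF (the artificial fluid alone). DIDS, a disulfonic acid stilbene, blocks anion channels and transporters. No label says whether replicates came from separate cultures or animals, so p-values measure only the spread between these samples, and a slice holds many cell types, so that fewer cells of a type and less RNA per cell cannot be told apart.

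Ribosomal proteins join the ribosomal RNAs to form the small subunit, which decodes the mRNA, and the large subunit, which joins amino acids. Their mRNAs are among the most abundant in cells and commonly start with a short run of pyrimidines, the terminal oligopyrimidine tract, through which mTORC1 signalling controls their translation. Neurons need ongoing ribosome supply for protein synthesis in cell bodies and processes, and translation is known to fall early in brain ischemia.

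The scanner files held fewer arrays than titles. The 12 files contained 9 distinct arrays, because 3 pairs of files were identical in every signal: IS 2 and ACSF + DIDS 3, ACSF + DIDS 1 and IS + DIDS 2, and IS + DIDS 1 and IS + DIDS 3. The authors' processed table instead held 12 different columns, of which 9 matched their own scanner file (rank correlation of at least 0.997 over probes) and 3 matched none (at most 0.960), namely IS 2, ACSF + DIDS 1 and IS + DIDS 1. Each comparison is therefore given from both sources: limma on the processed values of 12 arrays, 3 per group (16717 probes tested), and limma on the 7 scanner arrays whose titles name 1 group (16723 probes tested). The description of ACSF + DIDS 2 names the ischemic solution, against its title, and the title was followed. IS + DIDS 1 stood apart from the other arrays, at 50.6 on the first principal component of the processed values, against -17.7 to 8.92 on the other 11, so the main results are also given without it. The scored arrays detected 15291 (IS 1) to 16614 (Control ACSF 3) probes. IS 1 also had a median scanner signal of 131.9, against 69.5 to 83.6 on the other scored arrays. Of the scored arrays, Control ACSF 1, Control ACSF 2 and IS 1 were on the first chip, and the others, among them every scored array with DIDS, on the second. The chip of IS 2, ACSF + DIDS 1 and IS + DIDS 1 is not known. Chip and DIDS can therefore not be fully told apart wherever arrays with DIDS are set against arrays without.

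The sequence around the annotated start site is shown for members named in at least 2 comparisons, since pyrimidine runs there differ in length and place among them. The lines below give 20 bases before and 30 bases from the start, 5′ to 3′ on the gene's strand, from RefSeq on GRCm38.p6, with the longest unbroken run of C or T in capitals. Of 11 such genes with a window, 8 are printed, and Rpl30, Rpl32, Rpl21 and Rps27a were also named in at least 2 comparisons.
Rpl36al, chr12:69184038-69184087, minus strand: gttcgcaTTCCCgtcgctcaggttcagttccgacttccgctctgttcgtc
Rpl4, chr9:64173367-64173416, plus strand: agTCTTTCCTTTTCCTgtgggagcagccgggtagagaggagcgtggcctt
Rpl6, chr5:121204481-121204530, plus strand: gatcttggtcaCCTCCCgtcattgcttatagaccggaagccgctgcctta
Rpl12, chr2:32961692-32961741, plus strand: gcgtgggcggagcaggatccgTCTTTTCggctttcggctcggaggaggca
Rpl7l1, chr17:46782627-46782676, minus strand: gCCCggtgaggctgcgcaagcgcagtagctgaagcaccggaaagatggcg
Rps24, chr14:24490658-24490707, plus strand: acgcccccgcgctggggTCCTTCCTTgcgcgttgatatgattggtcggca
Rps12, chr10:23787180-23787229, minus strand: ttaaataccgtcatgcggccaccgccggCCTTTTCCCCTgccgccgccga
Rpl41, chr10:128549139-128549188, minus strand: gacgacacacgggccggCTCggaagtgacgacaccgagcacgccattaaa

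The run was 14 bases in Rpl4, 11 in Rps12, 9 in Rps24, 7 in Rpl12, 6 in Rpl6, 5 in Rpl36al and 3 in both Rpl7l1 and Rpl41. A second annotated start of Rps24 had a run of 7, and the windows not printed had 5 and 11 (2 starts of Rpl19), 9 (Rps9) and 5 (Rps3a1). In Rpl4, Rpl36al, Rpl6, Rpl7l1 and Rpl41 the whole run lay before the annotated start, outside the annotated mRNA, in Rps24 it crossed the start, and in Rpl12 and Rps12 it lay after it. These runs are therefore not shown to be terminal oligopyrimidine tracts. The table held 58 such windows for 50 of the 67 measured genes, and 29 of these windows carried a run of 8 or more C or T (50%), against 19.0% of 32847 windows over all genes. Runs of 8 or more A or G, the same feature on the other strand, stood in 8.62% of the ribosomal protein windows and in 21.9% of all windows. The first 5 bases from the annotated start were all C or T in 22.4% of the ribosomal protein windows and in 4.44% of all windows. These are letters at annotated and not at mapped start sites.

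As a group the ribosomal protein probes were bright. The median processed intensity was 13743 over the 72 probes, against 489 over all tested probes. Of the 72, 69 were detected on 9 of 9 scanner arrays (95.8%, against 84.4% of all tested probes), the exceptions being Rpl4 (5 arrays), 1 of the 2 Rpl7l1 probes (8) and Rps12 (8). Within groups the median SD of a ribosomal protein probe was 0.12 on the log2 scale, against 0.18 over all tested probes. Spread was not compared at equal brightness. Together the 72 probes took 3.86 to 4.18% of the tested signal in the IS + DIDS arrays, 3.76 to 4.00% in IS, 3.65 to 3.83% in ACSF + DIDS and 3.77 to 3.87% in Control ACSF. Of the brain markers with a named probe, 4 of 5 neuronal, 3 of 3 astrocyte, 2 of 2 oligodendrocyte and 1 of 2 microglial ones were detected, while Snap25 and Itgam, Pecam1 for endothelium and Hba-a1 and Ptprc for blood were not.

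**Figure D1:**
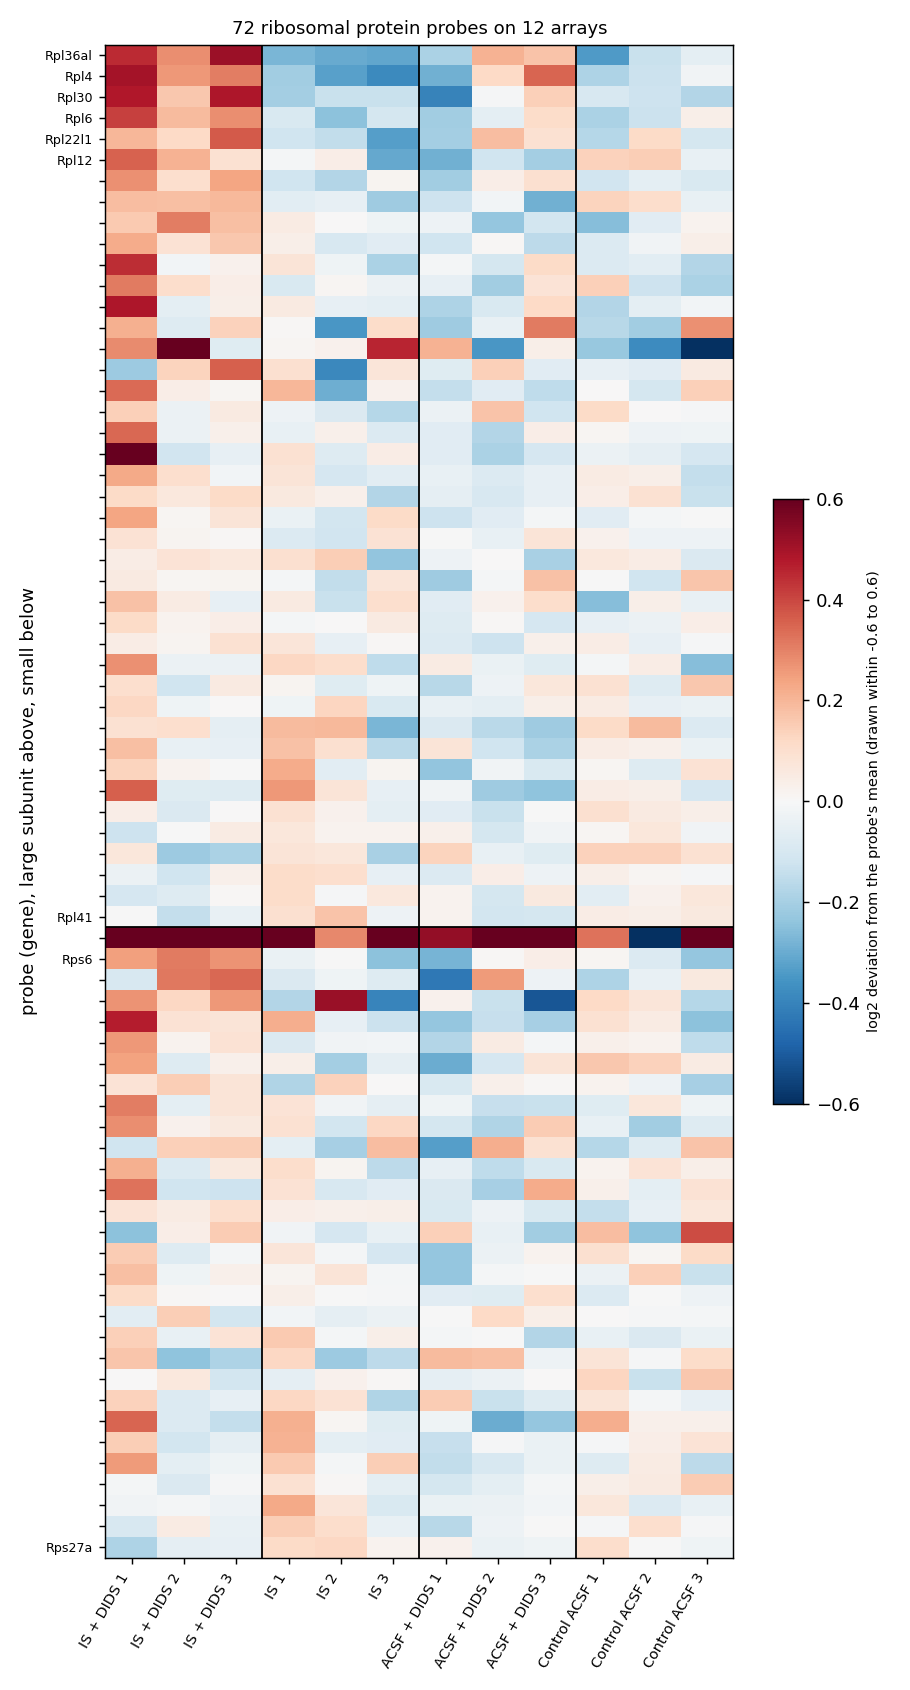
Log2 deviation of each of the 72 ribosomal protein probes (rows) from its own mean over 12 arrays (columns, by group), from the processed values, drawn within -0.6 to 0.6. Rows run from the highest to the lowest difference between IS + DIDS and IS within each subunit, with names given for the members named in that comparison. The IS + DIDS columns are reddest at the top of both blocks and in the first array.

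Setting IS + DIDS against IS addresses the action of DIDS on slices in the ischemic solution. Rpl36al, of the large subunit, rose in IS + DIDS by the processed values, and no ribosomal protein probe was called lower. Rpl4, also of the large subunit, was called too. It entered the test mainly through arrays with DIDS, where it was high, so its call supports no difference by itself and leaves Rpl36al alone. With Rpl4 counted, 2 of 72 members were called, where 3.07% of all tested probes were called, 0.664% higher and 2.41% lower (adjusted p under 0.05, limma with Benjamini-Hochberg adjustment). The 7 scanner arrays, with 1 array of IS + DIDS, gave 0 calls among the members and among all probes. At an unadjusted p under 0.05 there were 9 members by the processed values (18% of all probes) and 9 by the scanner arrays (12.6%). Of the 9 by the processed values, 8 were among the 42 large-subunit probes and 1 among the 30 small-subunit probes, and the difference between subunits was not tested. By sign, 53 of 72 members were higher in IS + DIDS, against 52.5% of all tested probes, and their median log2 difference was 0.066 beside 0.013 for all probes. Without IS + DIDS 1, 41 of 72 were higher (53.6% of all probes) and the median was 0.036, beside 0.020 for all probes. On the 7 scanner arrays 42 of 72 were higher (54.6% of all probes) and the median was 0.021, beside 0.015.

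Rpl36al encodes a paralog of Rpl36a, a large-subunit protein. Its processed intensity was 385, 342 and 402 in IS + DIDS, against 233, 229 and 227 in IS. In ACSF + DIDS it was 247, 327 and 318, and in Control ACSF 223, 257 and 271. The means were 376 ± 31.0 in IS + DIDS and 230 ± 3.11 in IS (SD, n = 3 each). Every IS + DIDS array lay above all 9 others, while the ACSF + DIDS and Control ACSF ranges overlapped. The log2 difference between IS + DIDS and IS was 0.71 (SE 0.13, adjusted p = 0.0115 by limma), a 1.63-fold rise. It was 0.40 on the 7 scanner arrays (adjusted p = 0.209), after a background correction with an offset of 16.

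The Rpl36al call held without IS + DIDS 1 (0.69, adjusted p = 0.0262 by limma). It was lost without IS 1 (0.72, adjusted p = 0.0571) and without IS + DIDS 3 (0.66, adjusted p = 0.0503), and it was lost on the 9 columns that match a scanner file once chip was a term (0.64, adjusted p = 0.0559). The size changed little in these fits.

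Rpl4, which encodes a large-subunit protein with a loop in the exit tunnel of the ribosome, had intensities of 188, 160 and 164 in IS + DIDS, against 115, 106 and 102 in IS. In ACSF + DIDS it read 109, 145 and 170, and in Control ACSF 117, 122 and 131. The 3 IS + DIDS arrays lay above every IS and Control ACSF array but overlapped the ACSF + DIDS arrays, the highest of which read 170. The probe was not well above background on either scored IS array, so the ratio of the group means is given only as at least 1.47-fold. That bound leaves out the spread between arrays. The fitted log2 difference was 0.66 (SE 0.15, adjusted p = 0.0314 by limma). Of the 9 scored arrays, Rpl4 was above the detection threshold on 4 with DIDS and on 1 without, so that it entered the test through the arrays where it was high, and its calls support no difference by themselves. Leaving out any single IS or IS + DIDS array ended this call, with adjusted p from 0.0686 to 0.0922 in these fits, and it was also lost on the 9 columns that match a scanner file (adjusted p = 0.0669). On the 7 scanner arrays the difference was 0.12 (adjusted p = 0.532).

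**Figure D2:**
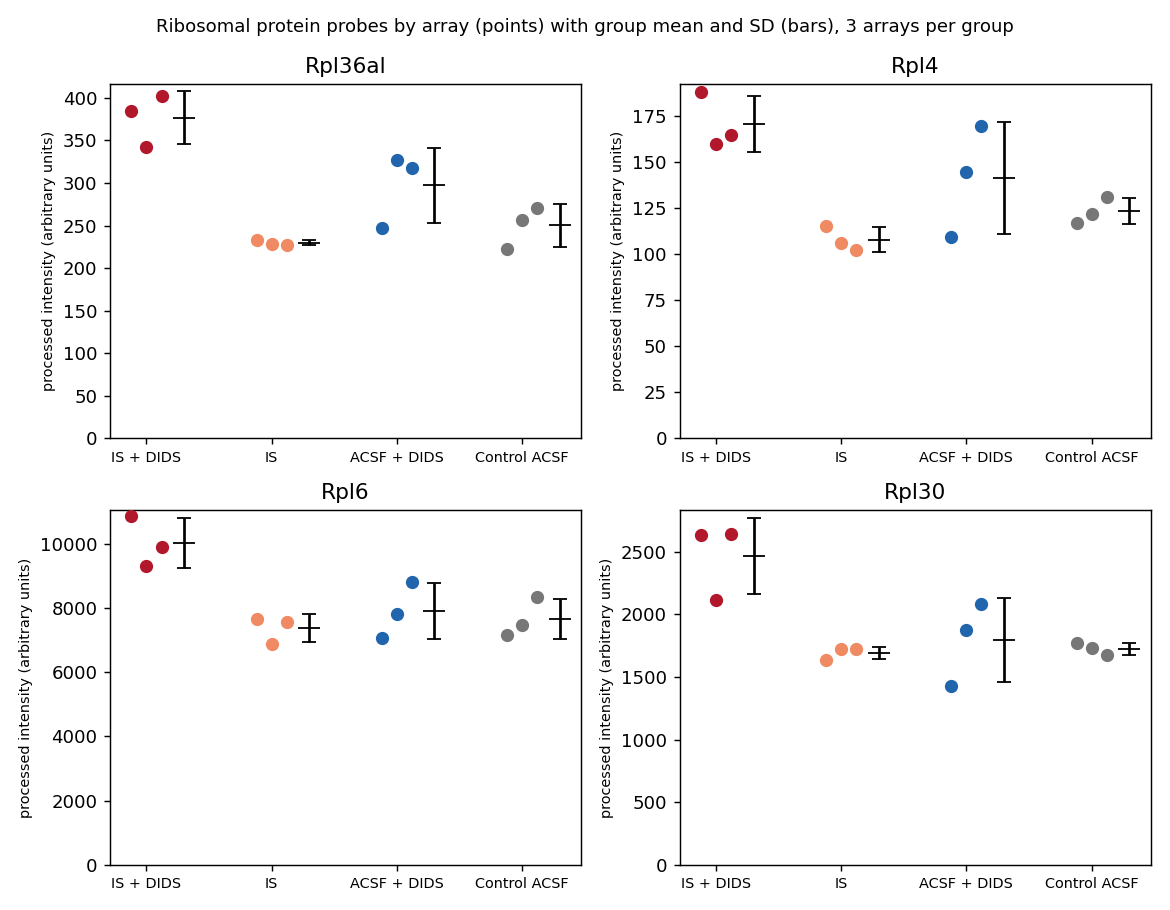
Processed intensity (vertical axes, arbitrary units, starting at 0) of Rpl36al, Rpl4, Rpl6 and Rpl30 on each array (points) with the group mean and SD over 3 arrays (bars). In all 4 panels the 3 IS + DIDS points lie above the 3 IS points.

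Other large-subunit members lay close to the threshold. Rpl6, part of the large subunit, read 10855, 9321 and 9909 in IS + DIDS, against 7660, 6884 and 7580 in IS. These groups did not overlap, and the difference of 0.44 (SE 0.12) did not pass (adjusted p = 0.0600 by limma). Rpl30, a large-subunit protein, read 2635, 2113 and 2640 in IS + DIDS, against 1639, 1723 and 1722 in IS. Its difference of 0.53 (SE 0.14) did not pass either (adjusted p = 0.0606 by limma), and on the 7 scanner arrays it was 0.75 (adjusted p = 0.191). Rpl6 passed with log2(value + 50) (adjusted p = 0.0469), and Rpl30 passed without ACSF + DIDS 1 (adjusted p = 0.0315) or without ACSF + DIDS 3 (adjusted p = 0.0478). Without IS + DIDS 1 they were at 0.38 and 0.48 (adjusted p = 0.121 and 0.118).

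Rpl22l1, a paralog of Rpl22, read 1534, 1453 and 1724 in IS + DIDS, against 1232, 1206 and 1064 in IS. Its difference was 0.43 (adjusted p = 0.0996 by limma). Rpl12, a protein of the ribosomal stalk base, differed by 0.31 (adjusted p = 0.197). Neither passed, and in both the 3 IS + DIDS arrays lay above the 3 IS arrays.

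In the small subunit Rps6, the substrate of the S6 kinases, read 4135, 4323 and 4195 in IS + DIDS, against 3388, 3484 and 2934 in IS. The groups did not overlap, and the difference of 0.37 (SE 0.12) did not pass (adjusted p = 0.114 by limma). The most negative member difference was that of Rps27a, which encodes ubiquitin fused to a small-subunit protein, at -0.18 (adjusted p = 0.332). Rpl41, a very short large-subunit protein, followed at -0.14 (adjusted p = 0.471). Over the 72 members, the 3 IS + DIDS arrays lay above the 3 IS arrays for 16 probes and below them for 1, where 11.7% of all tested probes lay above and 11.3% below.

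The size of the difference went with the brightness of the probe. Among the 24 dimmest members (mean intensity 133 to 8160) 22 were higher in IS + DIDS than in IS, with a median log2 difference of 0.19. Of the middle 24 (8569 to 17088) 20 were higher, with a median of 0.073, and of the brightest 24 (17531 to 34116) 11 were higher, with a median of -0.0080. Over all tested probes within the same 3 ranges of brightness the medians were 0.015, 0.037 and -0.015, and 52.7%, 59.1% and 45.2% were higher. Spearman's rho between brightness and difference was -0.73 over the 72 members and 0.0089 over all 16717 tested probes. Without IS + DIDS 1 it was -0.64 over the members, and on the 7 scanner arrays -0.38. These probes share the same arrays and scaling, whose part was not tested.

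**Figure D3:**
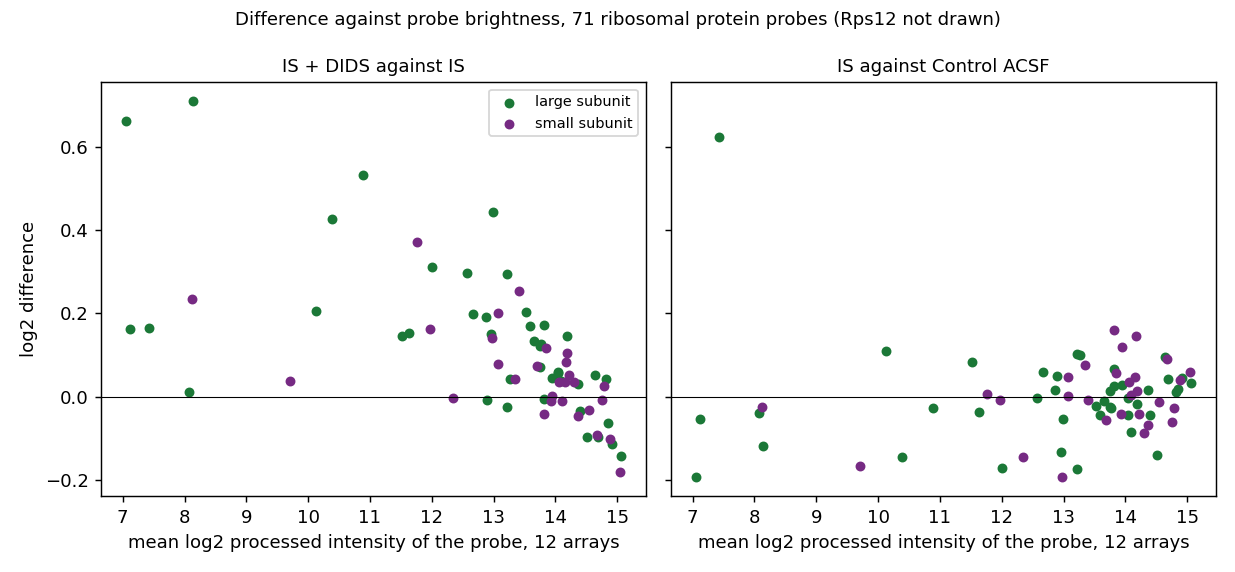
Log2 difference (vertical axes) against the mean log2 processed intensity over 12 arrays (horizontal axes) for 71 ribosomal protein probes, without Rps12, in IS + DIDS against IS (left) and IS against Control ACSF (right). The left panel falls from left to right (rho -0.73 with Rps12 included) and the right panel does not (rho 0.19).

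The member median on single arrays was highest in IS + DIDS 1. Taking each probe's deviation from its own mean over 12 arrays, the median over members was 0.17, 0.018 and 0.032 in IS + DIDS 1, 2 and 3. It was 0.057, -0.013 and -0.052 in IS, -0.076, -0.044 and -0.015 in ACSF + DIDS, and 0.013, -0.012 and -0.022 in Control ACSF. Over all tested probes the median deviation on IS + DIDS 1 was 0.013. Of the 72 members, 31 had their highest value of all 12 arrays on IS + DIDS 1, and 17 had their lowest on ACSF + DIDS 1. Both are columns without a scanner file of their own. The same counts were not made over all tested probes, so they cannot be read as particular to ribosomal proteins.

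**Figure D4:**
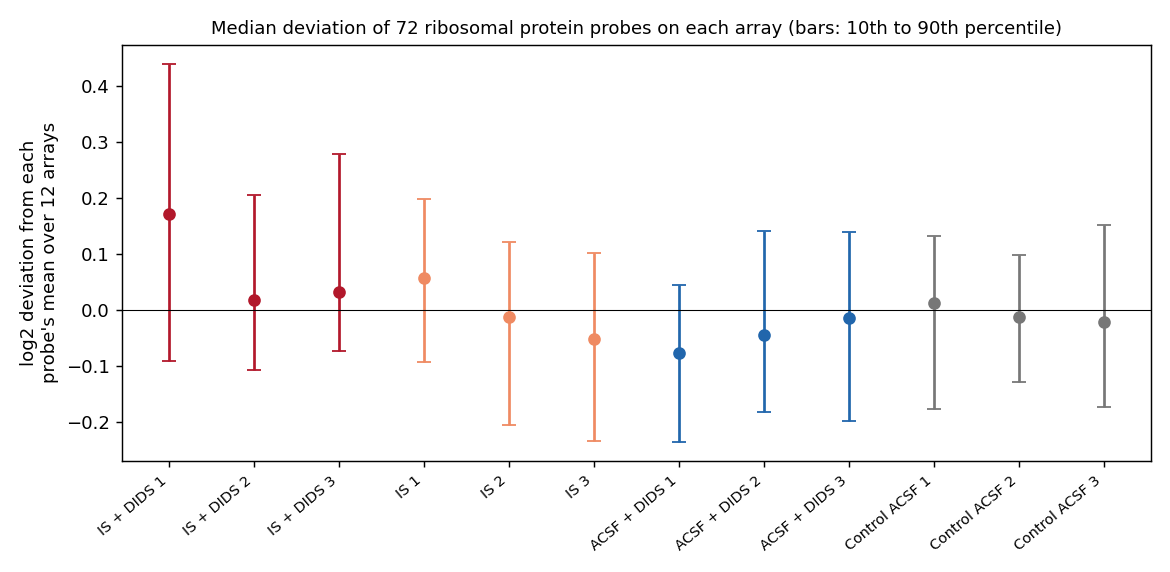
Median log2 deviation of the 72 ribosomal protein probes from their own means on each array (points), with bars from the 10th to the 90th percentile over probes. IS + DIDS 1 lies at 0.17, and the other 11 arrays lie between -0.076 and 0.057.

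IS against Control ACSF asks what the ischemic solution does alone. Ribosomal protein mRNAs gave 0 calls by either source, with 0.891% of all probes called by the processed values and 0.0179% by the 7 scanner arrays. At an unadjusted p under 0.05 there was 1 member by the processed values (8.92% of all probes) and 2 by the scanner arrays (10.9%). By sign 35 of 72 were higher in IS, against 49.2% of all probes, and the median difference was -0.0028, close to the -0.0032 of all probes. On the 7 scanner arrays 36 of 72 were higher (48.3% of all probes) and the median was 0.0043, beside -0.0048 for all probes. Differences of 70 of the 72 members lay within 0.25 of 0 on the log2 scale, as did 80.7% of all tested probes. The 3 IS arrays lay above the 3 Control ACSF arrays for 2 members (7.35% of all probes) and below them for 6 (8.58%). The dimmer Rpl7l1 probe was at 0.62 (adjusted p = 0.385 by limma), and its 3 IS arrays lay above the 3 Control ACSF arrays. On the 7 scanner arrays it was at 0.16, and it was below the detection threshold on Control ACSF 3. For the brighter Rpl7l1 probe the IS and Control ACSF arrays overlapped. Rps3a1, of the small subunit, was at -0.19 (adjusted p = 0.723). Rpl32, of the large subunit, was at -0.17 (adjusted p = 0.692), with its 3 IS arrays below the 3 Control ACSF arrays. Rpl4 was not well above background on either scored IS array nor on Control ACSF 1 and 2, so no fold difference can be stated for it. Its fitted difference was -0.19 (adjusted p = 0.788 by limma), and on the 7 scanner arrays it was -0.039. Rpl12 and Rps15a were both at -0.17 (adjusted p = 0.769 and 0.858), and Rpl30 at -0.026 (adjusted p = 0.982). Rps10 was at 0.16 (adjusted p = 0.762) and Rps16 at 0.12 (adjusted p = 0.822), both of the small subunit.

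ACSF + DIDS against Control ACSF shows DIDS without the ischemic solution. Here 22 of 72 members were higher in ACSF + DIDS by sign, against 50.6% of all probes, and 0 were called by either source, with 0.592% of all probes called by the processed values and 0 by the scanner arrays. At an unadjusted p under 0.05 there was 1 member by the processed values (8.79% of all probes) and 5 by the 7 scanner arrays (3.92%), where ACSF + DIDS had 1 array. The median was -0.038, beside 0.0022 for all probes. On the 7 scanner arrays 25 of 72 were higher (50.4% of all probes) with a median of -0.034, beside 0.00099. The 3 ACSF + DIDS arrays lay above the 3 Control ACSF arrays for 0 members (7% of all probes) and below them for 8 (8.64%). Rpl12 read 3347, 3760 and 3543 in ACSF + DIDS, against 4492, 4519 and 3955 in Control ACSF. Those arrays did not overlap, and its difference of -0.28 (SE 0.12) did not pass (adjusted p = 0.541 by limma).

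Further down that list, the brighter Rps9 probe was at -0.28 (adjusted p = 0.619) and the dimmer Rpl21 probe at -0.23 (adjusted p = 0.674). For the dimmer Rps9 probe and the brighter Rpl21 probe the ACSF + DIDS and Control ACSF arrays overlapped. Rps3a1 and Rps24 were both at -0.22 (adjusted p = 0.645 and 0.820 by limma). Rpl36al was at 0.24 (adjusted p = 0.628), Rpl4 at 0.17 (adjusted p = 0.793), the dimmer Rpl7l1 probe at 0.42 (adjusted p = 0.634) and Rpl30 at 0.041 (adjusted p = 0.960). That Rpl7l1 probe was at 0.019 on the 7 scanner arrays, and the brighter Rpl7l1 probe overlapped between these groups. Of the 3 Control ACSF arrays, 1 measured Rpl4 above the detection threshold, here and in the next comparison. ACSF + DIDS had the lowest mean of the 4 groups for 42 of the 72 members, and IS + DIDS had the highest mean for 47. These counts include IS + DIDS 1 and were not made over all tested probes, so they cannot be read as particular to ribosomal proteins.

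IS + DIDS against Control ACSF combines both treatments. Rpl36al rose, the only member called of 72, with 4.74% of all probes called, 1.38% higher and 3.37% lower, by the processed values. The intensities given above put its 3 IS + DIDS arrays over the 3 Control ACSF arrays, and the difference was 0.59 on the log2 scale (SE 0.13, adjusted p = 0.0216 by limma). This call was lost without Control ACSF 1 (0.51, adjusted p = 0.0982), without Control ACSF 2 (0.61, adjusted p = 0.0711) and without IS + DIDS 3 (0.54, adjusted p = 0.0746). The 7 scanner arrays called 0 members and 0 of all probes. At an unadjusted p under 0.05 there were 9 members by the processed values (22.7% of all probes) and 7 by the scanner arrays (12.4%). By sign 51 of 72 members were higher in IS + DIDS, against 52.5% of all probes, and the median was 0.091, beside 0.016. The 3 IS + DIDS arrays lay above the 3 Control ACSF arrays for 17 members (13.4% of all probes) and below them for 4 (14%). Without IS + DIDS 1 the median was 0.032, beside 0.012 for all probes, and 46 were higher (51.9% of all probes). On the 7 scanner arrays 49 were higher (53% of all probes) with a median of 0.062, beside 0.0093.

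Among members below the threshold in that comparison, Rpl30 was at 0.51 (adjusted p = 0.0594), the dimmer Rpl7l1 probe at 0.79 (adjusted p = 0.0668), Rpl6 at 0.39 (adjusted p = 0.0749) and Rpl4 at 0.47 (adjusted p = 0.0888 by limma). That Rpl7l1 probe was at 0.079 on the 7 scanner arrays. For the brighter Rpl7l1 probe the IS + DIDS arrays also lay above the Control ACSF arrays. Rpl19, of the large subunit, was the lowest at -0.24 (adjusted p = 0.25), and its 3 IS + DIDS arrays lay below the 3 Control ACSF arrays.

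IS + DIDS against ACSF + DIDS asks what the ischemic solution does when DIDS is present. Here 66 of 72 members were higher in IS + DIDS, against 51.0% of all tested probes, with a median of 0.15 beside 0.0078, and 0 members were called, where 2.47% of all probes were called. At an unadjusted p under 0.05 there were 9 members (20.9% of all probes) and, by the 7 scanner arrays, 6 (5.99%), again with 0 called. For 22 members the 3 IS + DIDS arrays lay above the 3 ACSF + DIDS arrays, where 13.6% of all probes did so, and below them for 1 (12.5%). Without IS + DIDS 1, 60 of 72 were higher (50.8% of all probes) and the median was 0.084, beside 0.0041 for all probes. On the 7 scanner arrays, with 1 array in each of these 2 groups, 64 were higher (53% of all probes). The median on these scanner arrays was 0.077, beside 0.0084. The ACSF + DIDS array there was ACSF + DIDS 2, whose description names the ischemic solution. The comparisons with IS + DIDS share its 3 arrays.

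The members named by the rule there were Rpl30 at 0.46 (adjusted p = 0.0959), Rps24 at 0.43 (adjusted p = 0.258), Rpl12 at 0.42 (adjusted p = 0.0863), Rps27l at 0.40 (adjusted p = 0.143 by limma) and the dimmer Rpl7l1 probe at 0.36 (adjusted p = 0.363). Rps27l encodes a paralog of Rps27. Rps27l read 11869, 9103 and 9052 in IS + DIDS, against 7300, 7779 and 7464 in ACSF + DIDS, and the groups did not overlap.

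**Figure D5:**
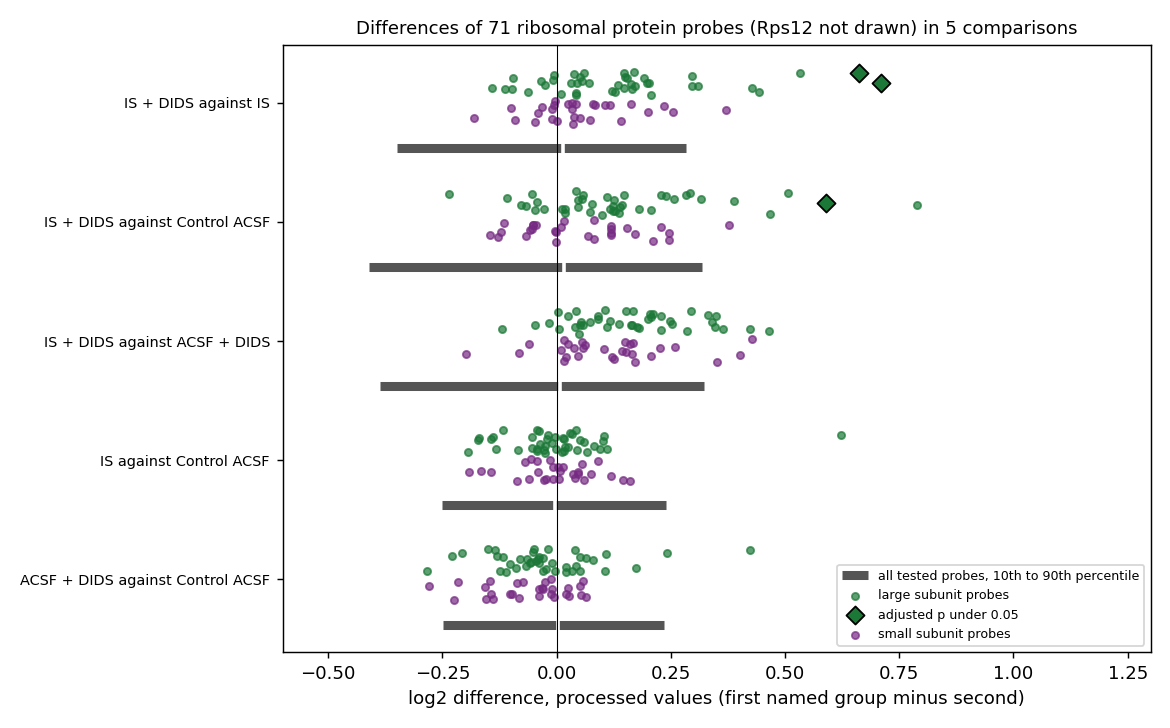
Log2 difference (horizontal axis, processed values) of 71 ribosomal protein probes, without Rps12, in 5 comparisons, with large-subunit probes (green) above small-subunit probes (purple). Diamonds mark calls (Rpl36al and Rpl4 in IS + DIDS against IS, Rpl36al in IS + DIDS against Control ACSF), and grey bars span the 10th to the 90th percentile of all tested probes with the median in white. Rpl4 entered the test mainly through its arrays with DIDS, so its diamond is a description.

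Whether DIDS acted differently with and without the ischemic solution was tested as the difference of the 2 DIDS differences. None of the 72 members was called by the processed values (smallest adjusted p = 0.206 by limma, 6 members at an unadjusted p under 0.05, beside 10.8% of all probes), where 0.532% of all probes were called. The 7 scanner arrays called 0 members, with 3 at an unadjusted p under 0.05 (5.65% of all probes). The median was 0.12, beside 0.0044 for all probes, and 58 of 72 were positive (50.5% of all probes). Without IS + DIDS 1 the median was 0.074, beside 0.019 for all probes, and 48 were positive (52.9% of all probes). On the 7 scanner arrays the median was 0.072, beside 0.013, and 53 were positive (53.8% of all probes). Rpl12 had the largest value, 0.59 (adjusted p = 0.206), followed by Rpl32 with 0.50 (adjusted p = 0.215). Rpl30 was at 0.49 (adjusted p = 0.392) and Rpl36al at 0.47 (adjusted p = 0.368). Rpl4 was fitted at 0.49 (adjusted p = 0.422), with its IS arrays at background.

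Pooling the 6 arrays with DIDS against the 6 without, 43 of 72 members were higher with DIDS (52.7% of all probes), with a median of 0.013 beside 0.0097 for all probes. This direction turned without IS + DIDS 1, where 30 of 72 were higher (52.1% of all probes) and the median was -0.015, beside 0.0086. On the 8 scanner arrays of known DIDS status 36 were higher (54% of all probes) with a median of 0.0023, beside 0.0092. None was called by the processed values, with 5 members at an unadjusted p under 0.05 (13.2% of all probes), where 0.455% of all probes were called, and none by the 8 scanner arrays, with 11 at an unadjusted p under 0.05 (15%). Rpl36al was at 0.48 (adjusted p = 0.0870 by limma) and Rpl4 at 0.42 (adjusted p = 0.146). Without ACSF + DIDS 1 Rpl36al passed, at 0.56 (adjusted p = 0.0243). Rpl4 also fell under the threshold there (0.52, adjusted p = 0.0337), but it entered the test through its arrays with DIDS, so this is a description. Rpl30 and the dimmer Rpl7l1 probe were both at 0.29 (adjusted p = 0.355 and 0.567). Below 0 lay the brighter Rps9 probe, Rpl41, Rps27a, the dimmer Rpl21 probe and Rpl19, from -0.14 to -0.11 (adjusted p from 0.439 to 0.684). Since the first chip held only arrays without DIDS among those scored, chip and DIDS cannot be fully told apart in this pooled comparison.

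Rps12, a small-subunit protein, cannot be compared as the others can. Its probe read 17350, 17121 and 16275 in IS + DIDS, 10980, 8585 and 14380 in IS, 10142, 15776 and 15574 in ACSF + DIDS, and 8833, 5.90 and 17454 in Control ACSF. The value of 5.90 on Control ACSF 2 came with a detection score of 0 on an array that detected 16089 probes. With that array IS + DIDS lay 4.13 above Control ACSF on the log2 scale, and without it 0.45 (adjusted p = 0.454 by limma). For IS against Control ACSF the difference was 3.51 with it and -0.17 without it (adjusted p = 0.993), for ACSF + DIDS against Control ACSF 3.81 and 0.13, and for pooled DIDS 2.21 and 0.39. Its difference between IS + DIDS and IS, which does not use the array's value, had an adjusted p of 0.260 once the array was left out, with a size of 0.61. The scored arrays of the first chip other than Control ACSF 2, Control ACSF 1 and IS 1, read 8833 and 10980, and the 6 arrays of the second chip read 14380 to 17454.

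Where 5 genes had a pair of tested probes, the members of a pair often differed in size. For Rpl21, of the large subunit, the brighter probe was at 0.30 (adjusted p = 0.171) and the dimmer at 0.01 (adjusted p = 0.980) in IS + DIDS against IS. For Rps9, of the small subunit, the dimmer probe was at 0.25 (adjusted p = 0.457) and the brighter at -0.01 (adjusted p = 0.980 by limma). Rpl27a, of the large subunit, had 0.15 and -0.10, and Rps3, of the small subunit, 0.08 and 0.04. Rpl7l1, known for large-subunit assembly, had 0.21 and 0.17. None of these 10 probes passed, and probes of 1 gene can read different transcripts or copies, whose part was not tested.

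The machinery around the ribosome gave a few calls in IS + DIDS against IS by the processed values. Gene lists and cell type markers are given from the processed values only, not from the scanner arrays. Of 19 measured initiation factors 2 rose, and 15 were higher by sign, with a median of 0.10. Eif3m, a subunit of the eIF3 complex, read 889, 680 and 735 in IS + DIDS, against 577, 536 and 533 in IS (0.48, SE 0.11, adjusted p = 0.0376 by limma). Eif6, which keeps the subunits apart until the large subunit is mature, read 2465, 2399 and 2313 in IS + DIDS, against 1715, 1970 and 1641 in IS (0.43, SE 0.10, adjusted p = 0.0447). Leaving out any 1 of the 12 arrays left at most 1 call in this list, and leaving out any array but IS 2, Control ACSF 3, ACSF + DIDS 3 or IS + DIDS 2 left 0.

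Of 12 elongation and termination factors and related genes 1 rose and 10 were higher by sign, with a median of 0.14. Tpt1, which encodes translationally controlled tumor protein, read 464, 393 and 347 in IS + DIDS, against 256, 235 and 252 in IS (0.69, SE 0.13, adjusted p = 0.0175 by limma). Its arrays in ACSF + DIDS read 222, 279 and 292, and those in Control ACSF 289, 263 and 253, so that IS + DIDS lay above every other array. By the processed values Tpt1 also rose against Control ACSF (0.57, adjusted p = 0.0326) and against ACSF + DIDS (0.60, adjusted p = 0.0364). The call against IS was lost without IS 1, without IS 2 and without IS + DIDS 2, each leaving 0 calls in that list. The call against Control ACSF was lost without any 1 Control ACSF array, without IS + DIDS 1 and without IS + DIDS 2, and the call against ACSF + DIDS held in 3 of 12 such fits, those without Control ACSF 3, IS 3 or IS + DIDS 3. Eif3m rose against Control ACSF as well (0.45, adjusted p = 0.0389), a call that held in 3 of 12 such fits, those without IS 3, ACSF + DIDS 3 or IS + DIDS 2.

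Of 22 ribosome assembly and nucleolar factors none passed in IS + DIDS against IS, 20 were higher by sign and the median was 0.17. Nmd3, the export adaptor of the large subunit, read 892, 881 and 848 in IS + DIDS, against 692, 664 and 649 in IS (0.39, SE 0.11, adjusted p = 0.0722 by limma). Of 10 genes of S6 kinases and mTORC1 signalling none passed, and 6 were higher, with a median of 0.06. Of 3 measured ribosomal proteins named outside the rule none passed, and 2 were higher. In IS against Control ACSF and in ACSF + DIDS against Control ACSF none of these 5 lists gave a call, and their medians lay between -0.12 and 0.04. In IS + DIDS against IS the list counts stand beside 0.664% of all probes called higher, 52.5% higher by sign and a median of 0.013. For IS + DIDS against Control ACSF 1.38% of all probes were called higher, and against ACSF + DIDS 136 of 16717.

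Cell type markers are given beside these values, and none of those detected was called. The summed intensity of the 3 astrocyte markers was 22963 to 26121 in the IS + DIDS arrays, against 28646 to 33434 in IS, 25299 to 34570 in ACSF + DIDS and 29737 to 36023 in Control ACSF. The 4 neuronal markers summed to 21743 to 22977 in IS + DIDS, against 19882 to 26945 in IS. Between IS + DIDS and IS, Gfap, the astrocyte filament protein, was at -0.38 (adjusted p = 0.166 by limma), Aqp4 at -0.30 (adjusted p = 0.516) and Slc1a2 at 0.25 (adjusted p = 0.400). Csf1r, the only microglial marker detected, read 1507 to 2152 in IS + DIDS, against 1116 to 1520 in IS, 1208 to 1835 in ACSF + DIDS and 1366 to 1720 in Control ACSF. Its difference between IS + DIDS and IS was 0.46 and did not pass (adjusted p = 0.206). The 2 oligodendrocyte markers summed to 7877 to 11715 in IS + DIDS, against 9111 to 11443 in IS. The part of cell makeup in the ribosomal protein values was not tested.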

How the data were processed

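The deposited scanner files give per probe an intensity, not normalized per the file headers (BeadStudio 2.3.47; the submitters' processing notes name BeadStudio 2.0), and a deposited detection score from 0 to 1. The authors' deposited processed table gives a linear intensity for 12 columns; its scaling method is not given in the sources used here, column medians are 80.6 to 82.5, and its log2 was used. Genes were named through RefSeq gene numbers on GRCm38.p6, which named 9796 probes.

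Probes detected above 0.99 on at least 3 of 9 distinct arrays were kept. The design called for neqc (offset 16) and quantile normalization of scanner arrays on the log2 scale; the processed values were added, and put first, after the files showed repeated arrays. Both used limma 3.58.1 (R 4.3.3): 1 coefficient per group, pooled spread, eBayes, Benjamini-Hochberg over all tested probes, threshold 0.05. The fit was tested on simulated data. The members and lists were chosen with earlier results of these data known. Named were all passing members, up to 12 per comparison, otherwise the 5 largest differences each way among the 20 smallest p (in IS + DIDS against IS and against Control ACSF, beside the calls), Rpl30, multi-probe genes and up to 3 genes per list. No label says what replicate numbers mark. Same-numbered deviations from group means correlated at over 0.1 in all 3 pairs of IS + DIDS with IS (0.198, 0.146 and 0.129) and of IS with Control ACSF (0.204, 0.140 and 0.426). They did not do so in the other 4 pairs of groups (-0.32 to 0.35). Among these was IS + DIDS with Control ACSF, at -0.039 for number 2, so these values do not settle whether numbers mark pairs. The main fits held no pair term, and a replicate block was an alternative. The number of arrays limits the precision. 1 result that the naming rule picks is not reported here.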

Additional observations from a re-analysis of the deposited data

Results flagged for a closer look

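Among 22 values tested for a sample far from the others, in groups of 6 arrays with or without DIDS, 3 were picked out, and chance picks about 1 in 20 groups. The Rps12 probe was at 2.56 on the log2 scale on Control ACSF 2, against 13.1 to 14.1 on the other 5 arrays without DIDS. The same probe was at 13.3 on ACSF + DIDS 1, against 13.9 to 14.1 on the other 5 arrays with DIDS. Rpl19 was at 14.3 on IS 3, against 14.6 to 14.7 on the other 5 arrays without DIDS. The test of a different DIDS effect with and without the ischemic solution picked out none of the 72 ribosomal protein probes.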

How the results depend on the processing

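Of the settings tried, those for the 12 processed columns were chosen after seeing the data. In the main fits 3.07% of all probes were called for IS + DIDS against IS and 4.74% against Control ACSF. Shares for the other settings are not given, so counts of called members only describe how calls moved between settings. With log2(value + 50), 2 ribosomal protein probes and 1 assembly factor were called in IS + DIDS against Control ACSF, and quantile normalization also called 1 assembly factor there. Keeping only probes detected on all 9 scanner arrays left 1 member called against IS, since Rpl4 was not tested. With eBayes trend and robust settings, 2 members and 2 elongation factors were called against Control ACSF. On the 9 columns that match their scanner file, 1 member was called against IS, the initiation list had 0 calls against IS and Control ACSF, the elongation list had 0 in its 3 comparisons, and the mTORC1 list had 1 against IS. The member medians there were 0.0085 against IS, 0.032 against Control ACSF, 0.065 against ACSF + DIDS and 0.054 for the difference of the DIDS differences. With chip as a block on these columns, 1 member was called against IS (Rps6, 0.53) and 0 against Control ACSF, both factor lists had 0, the mTORC1 list had 1 against IS and 1 against Control ACSF, and the last 2 medians were 0.065 and 0.047. The dimmer Rpl21 probe, pooled over DIDS, then turned to 0.096 (adjusted p = 0.815 by limma).

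Leaving out 1 array at a time from the 12 gave 0 to 3 member calls in IS + DIDS against IS and against Control ACSF. It gave 0 to 2 in the pooled DIDS comparison. Rpl4 is among these member calls, and its calls support no difference by themselves. The initiation, elongation, assembly and mTORC1 lists each had 0 to 1 calls where they changed. The member medians ranged from 0.032 to 0.12 against Control ACSF and from 0.084 to 0.17 against ACSF + DIDS. Rps12 in IS against Control ACSF ranged from -0.17 to 5.6, and Rpl30 in ACSF + DIDS against Control ACSF from -0.074 to 0.20. A replicate block gave 2 member calls against IS, Rpl4 among them, and 1 against Control ACSF. It took the elongation list against ACSF + DIDS to 0, and gave a median of 0.11 against ACSF + DIDS on the scanner arrays. It changed no other call of a member or list in the 12 arrays.

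For the 7 scanner arrays, median scaling moved the medians to 0.076 for IS + DIDS against IS, 0.065 for IS against Control ACSF, 0.035 for ACSF + DIDS against Control ACSF, 0.15 for IS + DIDS against Control ACSF and 0.055 for pooled DIDS. The processed values of 12 arrays gave 2 calls against IS, Rpl4 among them (3.07% of all probes), and 1 against Control ACSF (4.74%). Their medians were 0.066 against IS and 0.15 against ACSF + DIDS. Within the second chip the medians were 0.074 for IS + DIDS against IS and -0.052 for IS against Control ACSF, and IS against Control ACSF gave 0.048 within the first chip. Counting ACSF + DIDS 2 as IS + DIDS, as its description says, gave -0.027 against IS and 0.015 against Control ACSF. Leaving out arrays gave medians of 0.0054 to 0.074 for IS + DIDS against IS and -0.031 to 0.049 for IS against Control ACSF, and 0 to 1 calls in the pooled DIDS comparison. The cause of these changes was not tested. A dim probe such as Rpl4 is limited by its signal over background.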
